A study of Mus musculus with 4 samples.

Results

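Translation factors are the proteins that load ribosomes onto mRNA, move them along it and release them at its end. This account covers the 47 mouse genes of these factors, chosen by symbol from the known genes of initiation, elongation and termination, among 22417 genes in the deposited table. By function 37 belong to initiation, 7 to elongation and 3 to termination and ribosome recycling. All 47 were found, and 40 had enough counts in the libraries to be tested.

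The cells were bone-marrow-derived monocytes from mice, collected after RANKL, the cytokine that turns monocytes into bone-resorbing osteoclasts, had been given for 3 days. There were 2 libraries labelled Nat10 conditional knockout (cKO) and 2 labelled wild type (WT), and both groups had the same osteoclast induction. Nat10 acetylates cytidine in RNA to N4-acetylcytidine. Which cells the deletion reaches, which driver makes it and how many mice were used are not stated in the sources used here. Ribosome profiling was used, which sequences the mRNA fragments that ribosomes protect, so a gene's count reflects both its mRNA level and how often it is translated. Matched RNA-seq was not used here, and in a bulk sample fewer cells of a type and less RNA per cell cannot be told apart.

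The libraries held 1467611 and 1481083 counts in cKO, against 906937 and 3014620 counts in WT. Nothing in the labels says that replicates were separate mice or cultures. The p-values therefore cover only the spread among these 4 libraries, which could be technical. WT replicate 2 stood apart from the other libraries. Its log2 level correlated with WT replicate 1 at 0.797 across the 7953 tested genes, and with the cKO libraries at 0.760 and 0.769. The cKO libraries correlated with each other at 0.923. WT replicate 1 correlated with the cKO libraries at 0.862 and 0.876, more closely than with WT replicate 2. In WT replicate 2, 9402 genes had a count, fewer than the 10508 to 10798 in each other library. Nat10 had 101 and 72 counts in cKO, against 77 and 148 in WT, a log2 fold change of -0.18 (SE 0.41, adjusted p = 0.907, edgeR), so its counts do not check the labels, and directions below go by label. Counts over a whole gene do not show a missing exon. Osteoclast markers (Acp5, Ctsk, Mmp9 and 6 others) and macrophage markers had counts in every library, while the 9 lymphoid and erythroid markers had none.

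Initiation begins when eIF2, bound to GTP, brings the initiator tRNA to the small ribosomal subunit together with eIF1, eIF1A, eIF3 and eIF5. The eIF4 factors bind the mRNA cap and unwind the leader, the complex scans to the start codon, and eIF5B joins the large subunit. Elongation factor eEF1A then delivers each aminoacyl-tRNA and eEF2 moves the ribosome by a codon. At a stop codon eRF1 and eRF3 release the protein, and ABCE1 splits the ribosome for reuse. Many elongation factor mRNAs and some initiation factor mRNAs carry a terminal oligopyrimidine (TOP) tract, a run of C and T letters at the very start of the transcript through which the kinase mTOR controls their translation.

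The TOP tract is the feature by which 9 of these genes were put on a TOP list, not from the letters shown here. For the 5 of them with an entry, the 30 bases around the annotated start are shown. They run 5′ to 3′ on the gene's strand, 15 bases before the start and 15 from it, and come from RefSeq (GRCm38.p6, not the build of the counts). Capitals mark the longest run of at least 6 letters that begins with C and holds only C or T. Only the gene's own strand was searched.
Eif3f (chr7:108934400-108934429, plus strand): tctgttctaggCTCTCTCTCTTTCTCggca
Eif4b (chr15:102073758-102073787, plus strand): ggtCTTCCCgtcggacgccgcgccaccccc
Eef1a1 (chr9:78481710-78481739, minus strand): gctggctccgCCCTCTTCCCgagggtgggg
Eef1b2 (chr1:63176816-63176845, plus strand): tggacctgcagttccgccggaagtagccga
Eef2 (chr10:81176616-81176645, plus strand): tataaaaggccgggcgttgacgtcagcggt
Such a run was present in 3 of these 5 windows, in 6 of the 31 other factor genes with an entry and in 25.5% of all genes with an entry. In Eif3f and Eef1a1 the run lay across the annotated start itself, and in Eif4b wholly before it. A run in this window is a description of the letters, and its absence says only that these letters are not there.

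No translation factor gene passed the test over all genes. Of the 40 tested, 0 had an adjusted p under 0.05 by edgeR's quasi-likelihood test, where 1.4% of all 7953 tested genes did. An unadjusted p under 0.05 was found for 7 of the 40 (12.1% of all genes), 6 of them higher in cKO (5.63% of all genes) and 1 lower (6.5%). DESeq2 called Etf1 and Eif4g2, 2 of the 36 it gave an adjusted p, where it called 4.97% of all such genes, 2.54% as higher in cKO. Limma-voom called 7 of the 40, all higher in cKO (Eif1a, Eif3b, Eif3g, Eif4b, Eif4g2, Eif5a and Etf1), where it called 7.53% of all genes, 5.18% as higher in cKO. The median log2 fold change (cKO minus WT throughout) was 0.15 for the 40 genes and -0.01 for all tested genes, and 26 of the 40 (65%) were positive against 49.5% of all tested genes. Every library value in cKO lay above both WT values for 15 of the 40 and below both for 3, where 22.7% and 22.6% of all tested genes did so.

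**Figure D1:**
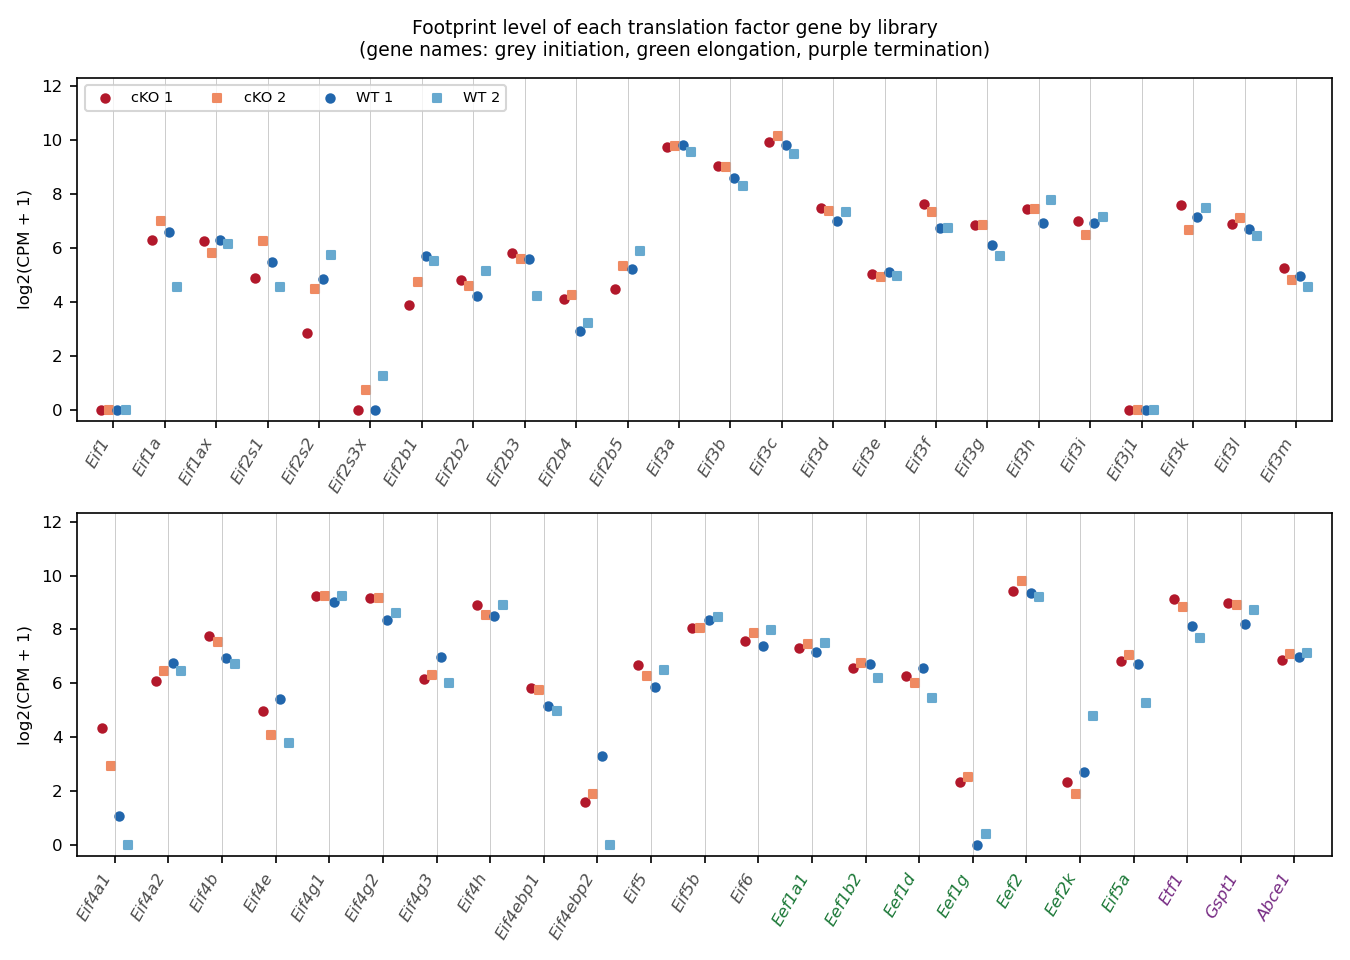
Level of each of the 47 genes as log2(CPM + 1) (CPM: counts scaled to a common library total) in the 4 libraries, with cKO points left of WT points; name colours give the class. Eif1 and Eif3j1 sit at 0 in all 4 libraries, and the points of Etf1 and Eif4g2 in cKO lie above both WT points.

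By class, the summed level of the 3 termination genes was 1169 and 1062 CPM in the cKO libraries against 700.3 and 756.9 CPM in the WT libraries. For the 37 initiation genes the sums were 6501 and 6495 CPM in cKO, against 5643 and 5561 CPM in WT. The 7 elongation genes summed to 1145 and 1363 CPM in cKO, against 1109 and 952.4 CPM in WT. The cKO sums were higher in each class, and the elongation sums of cKO replicate 1 and WT replicate 1 lay closest. Eef2 made up most of the elongation sum. The eEF1 genes alone overlapped, with 332.0 and 348.5 CPM in cKO, against 339.7 and 294.6 CPM in WT. Etf1 and Gspt1 made up most of the termination sum, and Abce1 overlapped between the groups. All 47 genes together took 0.876% and 0.894% of the counts in cKO, against 0.745% and 0.703% in WT. Median log2 fold changes were 0.46 for the 3 termination genes tested, 0.20 for the 5 elongation genes tested and 0.10 for the 32 initiation genes tested, with -0.01 for all genes. These sums and medians describe the genes and were not tested. The termination median is that of Gspt1, and it was 0.76 without WT replicate 2 and 0.27 without WT replicate 1.

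**Figure D2:**
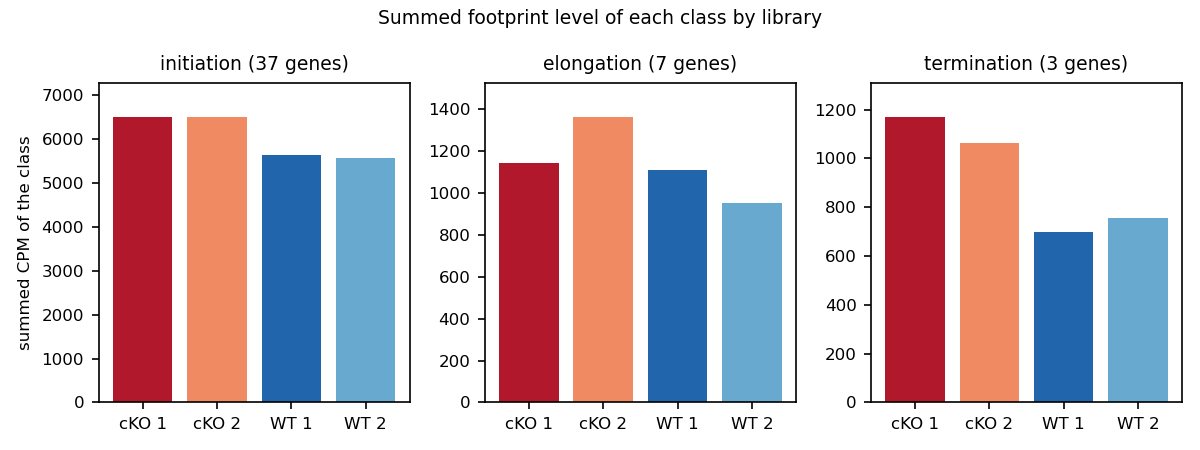
Summed CPM of the initiation, elongation and termination genes in each library, bars from 0, cKO left of WT. The termination bars of cKO (1169 and 1062 CPM) stand above those of WT (700.3 and 756.9 CPM), and the elongation bars of cKO replicate 1 and WT replicate 1 are nearly level.

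Termination held the gene nearest to the threshold. This was Etf1, the gene of the release factor eRF1 that reads all stop codons (ENSMUSG00000024360, GRCm39 chromosome 18, 35035838 to 35065060, minus strand). The libraries held 807 and 667 of its counts in cKO, against 255 and 590 in WT. Scaled by library this is 553.5 and 449.6 CPM in cKO, against 281.2 and 202.3 CPM in WT, so both cKO values were above both WT values. In cKO the mean was 501.5 ± 73.5 CPM, and in WT it was 241.8 ± 55.8 CPM (SD, n = 2 each), a 2.09-fold difference (log2 1.06, SE 0.22, 95% interval 0.56 to 1.56, adjusted p = 0.0601, edgeR). Its unadjusted p of 0.00105 ranked 139 among the 7953. Of 12 alternative settings 8 put Etf1 past the threshold, among them leaving out cKO replicate 2 (adjusted p = 0.0468), WT replicate 1 (adjusted p = 4.50e-11) or WT replicate 2 (log2 0.85, adjusted p = 0.000355), and without cKO replicate 1 the adjusted p was 0.450.

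Gspt1, the gene of the GTPase eRF3a that works with eRF1 (chromosome 16, 11037156 to 11072189, minus strand), stood at 498.6 and 477.9 CPM in cKO, against 292.3 and 416.0 CPM in WT. Both cKO values were higher, and the test did not pass (log2 0.46, SE 0.20, adjusted p = 0.420, edgeR). Without WT replicate 2 it did (log2 0.76, adjusted p = 0.00228). Abce1, whose product separates the ribosomal subunits after release, had 116.6 and 134.8 CPM in cKO, against 126.8 and 138.6 CPM in WT. Its groups overlapped, with a log2 fold change of -0.08 and a 95% interval from -0.67 to 0.51.

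Ratios of counts within a library do not depend on library scaling. Etf1 over Abce1 was 4.75 and 3.34 in cKO against 2.22 and 1.46 in WT, and the exact 95% counting intervals of the nearest libraries did not meet (from 2.84 in cKO replicate 2, to 2.79 in WT replicate 1). Etf1 over Gspt1 was 1.11 and 0.941 in cKO and 0.962 and 0.486 in WT, so here WT replicate 1 lay among the cKO libraries. Intervals cover counting error only and leave out the spread between libraries. Because PCR reads are not independent molecules, they may be too narrow even for counting error.

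**Figure D3:**
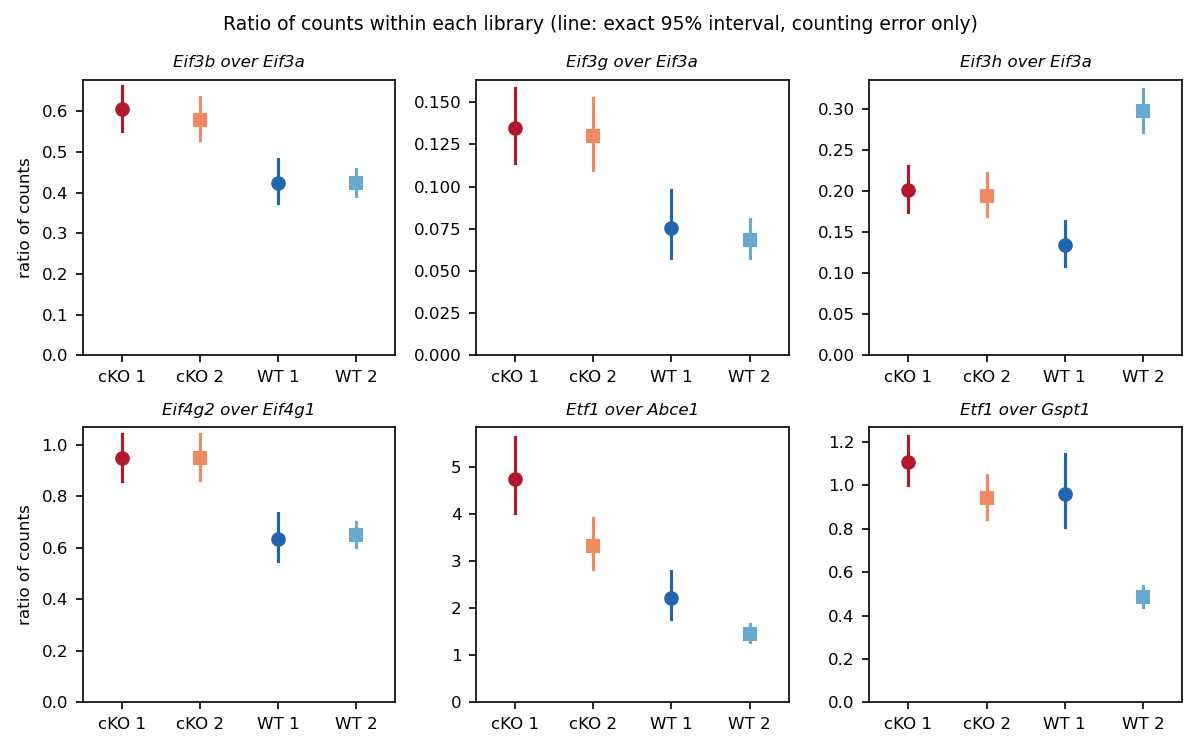
Ratio of counts of 6 gene pairs within each library, with exact 95% intervals for counting error as lines and cKO left of WT. Eif3b over Eif3a, Eif3g over Eif3a, Eif4g2 over Eif4g1 and Etf1 over Abce1 are higher in both cKO libraries, while Eif3h over Eif3a and Etf1 over Gspt1 overlap.

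No elongation factor gene passed, and all 5 tested had a positive log2 fold change. Eef2, the gene of the translocase (ENSMUSG00000034994, chromosome 10, 81012465 to 81018332, plus strand), had 694.8 and 880.3 CPM in cKO, against 659.5 and 593.7 CPM in WT. The groups did not overlap, but the cKO libraries differed from each other by more than cKO replicate 1 did from WT replicate 1 (log2 0.33, SE 0.17, adjusted p = 0.472, edgeR). Eef1a1, which encodes the carrier of aminoacyl-tRNA, had 157.1 and 173.2 CPM in cKO, against 141.2 and 179.0 CPM in WT. Its log2 fold change was 0.04 with a 95% interval from -0.53 to 0.60, and the sign turned by limma-voom (-0.016) and without cKO replicate 2 (-0.010) or WT replicate 1 (-0.081).

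The subunits of the guanine exchange complex of eEF1A did not pass either. Eef1b2 stood at 94.0 and 106.5 CPM in cKO against 104.8 and 72.0 CPM in WT (log2 0.20, SE 0.32). For Eef1d the levels were 76.8 and 64.0 CPM in cKO, against 93.7 and 43.2 CPM in WT (log2 0.07, SE 0.43), and in both genes the cKO values lay within the WT range or across its edge. The log2 fold change of Eef1d was 0.74 without WT replicate 1, -0.40 without WT replicate 2 and -0.055 without cKO replicate 1. Eef1g, the structural subunit of the exchange complex, had 6 and 7 counts in cKO, against 0 and 1 in WT, too few to be tested. The ratio of its summed counts per scaled library was 16.9 with an exact 95% interval from 2.54 to 718. That interval covers counting error only, not the spread between libraries.

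Eif5a encodes the hypusine-carrying factor named after initiation that keeps elongation moving at difficult peptide bonds, and it was counted with elongation for that role. It had 113.9 and 131.4 CPM in cKO, against 104.8 and 37.4 CPM in WT. WT replicate 1 lay close to the cKO libraries and WT replicate 2 far below them (log2 0.84, SE 0.46, adjusted p = 0.508, edgeR). Without WT replicate 1 the gene passed (log2 1.75, adjusted p = 5.35e-06), the cKO pair alone then giving the spread. Eef2k, the gene of the kinase that inhibits eEF2, was high in WT replicate 2 alone, with 6 and 4 counts in cKO, against 5 and 78 in WT. WT replicate 2 held 94.0% of the WT counts. The gene was not tested, and the ratio of summed counts per scaled library was 0.157 (exact 95% interval 0.0724 to 0.303). The interval covers counting error only and leaves out the gap between the WT libraries.

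Within initiation, the 13-gene set of eIF3, the large scaffold that holds the small subunit and the mRNA together, had 12 genes tested. Their median log2 fold change was 0.28, with 8 positive and 4 negative, and for 6 of the 12 both cKO values were above both WT values (22.7% of all genes). Summed over the complex the level was 3512 and 3511 CPM in cKO, against 3050 and 2767 CPM in WT. None passed, and 3 had an unadjusted p under 0.05, namely Eif3b, Eif3f and Eif3g, all higher in cKO (5.63% of all genes).

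Eif3b encodes a scaffold subunit (ENSMUSG00000056076, chromosome 5, 140405083 to 140429115, plus strand). It had 521.2 and 511.6 CPM in cKO, against 383.8 and 314.5 CPM in WT. The cKO libraries were nearly equal and both were above WT (1.48-fold, log2 0.57, SE 0.18, adjusted p = 0.211, edgeR). Eif3g, the gene of an RNA-binding subunit, had 115.9 and 114.6 CPM in cKO, against 68.4 and 50.8 CPM in WT (1.96-fold, log2 0.97, SE 0.32, adjusted p = 0.237). Eif3f, a gene on the TOP list, had 198.9 and 159.1 CPM in cKO, against 105.9 and 104.6 CPM in WT (1.70-fold, log2 0.77, SE 0.26, adjusted p = 0.261, edgeR). In these 3 genes the WT values were lower in both replicates, and both cKO values were above both. Without WT replicate 2 their log2 fold changes were 0.44 for Eif3b, 0.77 for Eif3g and 0.77 for Eif3f, and none passed in that fit either.

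Eif3a and Eif3c are the genes of the largest core subunits. Eif3a stood at 861.4 and 882.3 CPM in cKO, against 904.3 and 742.8 CPM in WT, overlapping, with a log2 fold change of 0.08 (95% interval -0.26 to 0.43) that was -0.037 without WT replicate 2. Eif3c stood at 962.9 and 1128 CPM in cKO, against 909.9 and 718.5 CPM in WT (log2 0.36, SE 0.16, adjusted p = 0.424, edgeR). Against Eif3a in the same library, Eif3b had a ratio of 0.605 and 0.580 in cKO and 0.424 and 0.423 in WT. Eif3g had 0.135 and 0.130 against Eif3a in cKO and 0.0756 and 0.0683 in WT, and in both pairs the counting intervals of the groups did not meet. Eif3c, Eif3f and Eif3l against Eif3a were also higher in both cKO libraries than in both WT libraries. For these genes the counting intervals of the nearest libraries met. Eif3h, Eif3i, Eif3k and Eif3d against Eif3a overlapped between the groups. How often gene pairs in general separate in this way was not tested.

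None of the other eIF3 genes had an unadjusted p under 0.05. Eif3i had the lowest log2 fold change of the complex at -0.29 (SE 0.29), with 125.5 and 87.6 CPM in cKO, against 121.3 and 139.2 CPM in WT. Eif3d, Eif3e, Eif3h, Eif3k, Eif3l and Eif3m had log2 fold changes between -0.14 and 0.42, each with a 95% interval that holds 0. Eif3h had 172.8 and 171.2 CPM in cKO, between 121.3 and 220.5 CPM in the WT libraries. Eif3j1 had no count in any library.

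**Figure D4:**
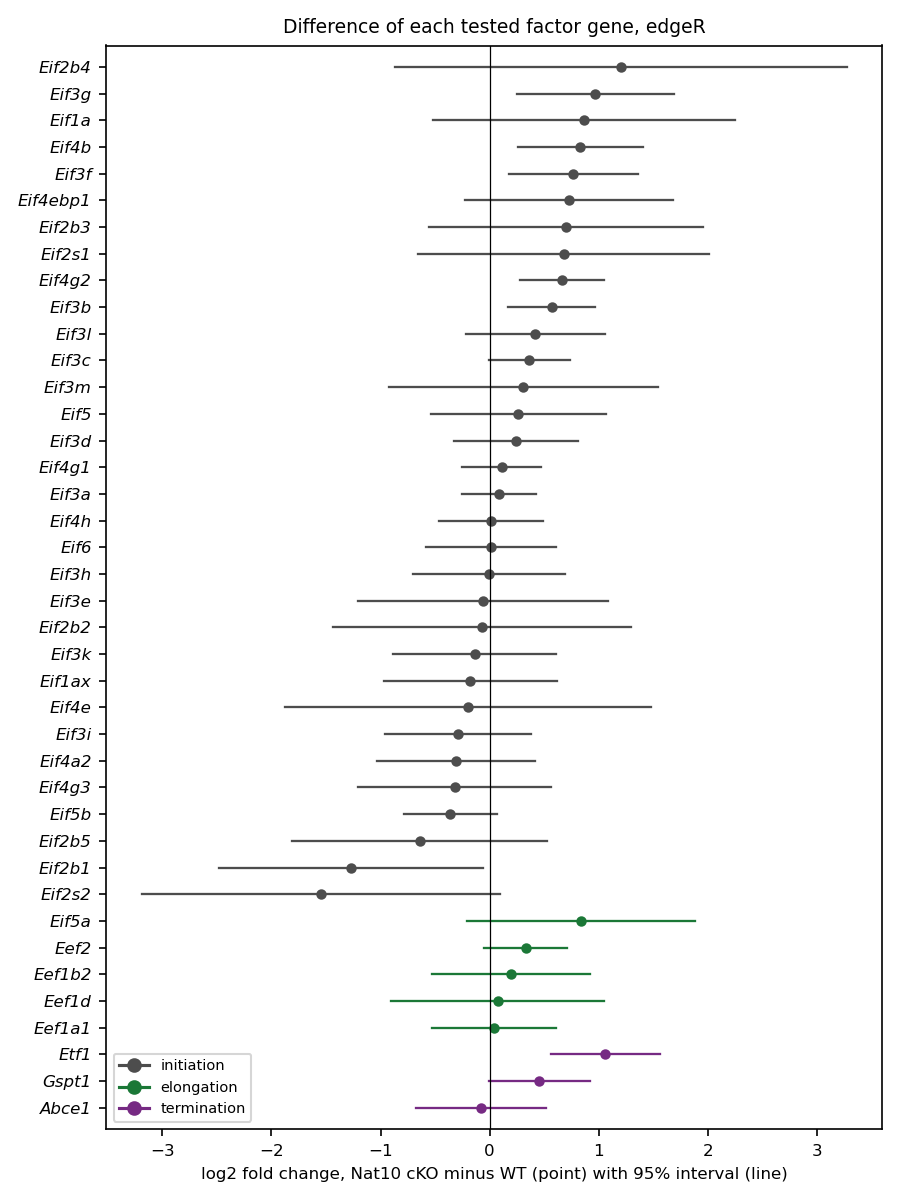
Log2 fold change (cKO minus WT) of the 40 tested genes by edgeR, as points with 95% intervals as lines, grouped by class and sorted within it. The intervals of Etf1, Eif4g2, Eif4b, Eif3b, Eif3f and Eif3g lie above 0 and that of Eif2b1 below it, and no gene passed after adjustment over all genes.

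None of the genes of cap binding and unwinding passed. Eif4g2 encodes DAP5, a relative of the scaffold eIF4G that lacks the site for the cap-binding protein (ENSMUSG00000005610, chromosome 7, 110666957 to 110682237, minus strand). It had 571.3 and 571.6 CPM in cKO, against 326.4 and 391.7 CPM in WT. The cKO libraries were nearly identical and above both WT libraries (1.59-fold, log2 0.67, SE 0.17, adjusted p = 0.132, edgeR), and without WT replicate 2 the gene passed (log2 0.82, adjusted p = 0.000263). Eif4g1, the gene of the main scaffold, had 602.9 and 603.3 CPM in cKO, against 513.9 and 602.6 CPM in WT (log2 0.11, SE 0.16). Eif4g2 over Eif4g1 was 0.948 and 0.947 in cKO and 0.635 and 0.650 in WT, alike within each genotype. Eif4g3, the third member of that family, was at 71.3 and 78.2 CPM in cKO, inside the WT range of 63.1 to 126.8 CPM.

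Eif4b, the gene of a cofactor of the eIF4A helicase, is also on the TOP list (chromosome 15, 101982208 to 102005608, plus strand). It had 216.7 and 182.7 CPM in cKO, against 121.3 and 103.9 CPM in WT. This 1.78-fold difference (log2 0.83, SE 0.25) had an adjusted p of 0.200 by edgeR, and the groups did not overlap. Eif4h, whose product has a like role, had 477.4 and 372.1 CPM in cKO, against 358.4 and 478.8 CPM in WT, a log2 fold change of 0.02 with a 95% interval from -0.46 to 0.49. Eif4a2, a helicase gene, was at 67.2 and 87.0 CPM in cKO, against 105.9 and 86.4 CPM in WT (log2 -0.31, SE 0.32).

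Eif4a1, the other helicase gene of the cap complex, had 28 and 10 counts in cKO, against 1 and 0 in WT and was not tested with the other genes. Its summed counts per scaled library in cKO were 49.4 times those in WT, with an exact 95% interval from 8.34 to 2001. That interval covers counting error only, and the cKO libraries themselves stood apart at 19.2 and 6.74 CPM. When every gene with a count was tested, its adjusted p was 0.355, and without WT replicate 1 it was 0.00517 (edgeR).

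Eif4e encodes the cap-binding protein, the target of the 4E-BP repressors that mTOR switches off by phosphorylation. It had 44 and 24 counts in cKO, against 38 and 37 in WT, or 30.2 and 16.2 CPM in cKO, against 41.9 and 12.7 CPM in WT. The spread within each genotype exceeded the difference (log2 -0.19, 95% interval -1.87 to 1.48). Eif4ebp1, a 4E-BP gene, had 55.6 and 53.3 CPM in cKO, against 35.3 and 30.9 CPM in WT. Its groups did not overlap, and the test did not pass (1.65-fold, log2 0.72, SE 0.42, adjusted p = 0.541, edgeR). Eif4ebp2 had 3 and 4 counts in cKO, against 8 and 0 in WT.

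The genes of eIF2 and of its exchange factor eIF2B, the point at which stress kinases slow initiation, had few counts, and none passed. Eif2s1, the gene of the alpha subunit that those kinases phosphorylate, had 28.8 and 75.5 CPM in cKO, against 44.1 and 22.6 CPM in WT. Eif2s2, the gene of the beta subunit, had 6.17 and 21.6 CPM in cKO, against 27.6 and 52.8 CPM in WT (log2 -1.55, SE 0.72, adjusted p = 0.444, edgeR). The beta subunit gene was lower in both cKO libraries, yet the libraries of each genotype differed from each other by more than the nearest cKO and WT values did. Its log2 fold change was -0.88 without cKO replicate 1 and -2.68 without cKO replicate 2. Eif2s3x, the gene of the gamma subunit, had 0 and 1 counts in cKO, against 0 and 4 in WT.

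Of the 5 eIF2B genes, Eif2b1 and Eif2b4 had groups that did not overlap, in opposite directions, where 22.7% of all genes lay above and 22.6% below. Eif2b1, a regulatory subunit gene (chromosome 5, 124708276 to 124717194, minus strand), had 13.7 and 25.6 CPM in cKO, against 50.7 and 44.6 CPM in WT. This was the only factor gene with an unadjusted p under 0.05 and a negative log2 fold change (-1.27, SE 0.53, adjusted p = 0.384, edgeR). Eif2b4, another regulatory subunit gene, had 16.5 and 18.2 CPM in cKO, against 6.62 and 8.23 CPM in WT, from 24 and 27 counts in cKO, against 6 and 24 in WT (log2 1.20, SE 0.91). Eif2b2, Eif2b3 and Eif2b5, the last of them the catalytic subunit gene, had overlapping groups and log2 fold changes from -0.64 to 0.70. Eif2b3 was at 1.58 without WT replicate 1 and 0.12 without WT replicate 2, and Eif2b2 at -0.41 and 0.53 in the same fits. The summed level of the 5 was 133.7 and 153.7 CPM in cKO, against 158.8 and 162.6 CPM in WT.

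The factors of start codon choice and subunit joining showed no difference that passed. Eif1ax, the X-linked gene of eIF1A, had 75.4 and 54.6 CPM in cKO, against 77.2 and 70.3 CPM in WT. Eif1a, its autosomal copy, had 76.8 and 128.1 CPM in cKO, against 95.9 and 22.3 CPM in WT, the widest gap on the log2 scale (2.11) between the WT libraries of any tested factor gene (log2 fold change 0.86, SE 0.61, adjusted p = 0.625, edgeR). Without WT replicate 1 it passed (log2 2.23, adjusted p = 3.10e-07), and without WT replicate 2 its log2 fold change was 0.11. Eif5, which encodes the GTPase activator of eIF2, had 101.5 and 76.8 CPM in cKO, against 57.3 and 89.2 CPM in WT (log2 0.26, SE 0.35).

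Eif5b, the gene of the GTPase that joins the large subunit, had 262.7 and 266.3 CPM in cKO, below 324.2 and 353.6 CPM in WT. Both pairs were close, and the difference was small (log2 -0.36, SE 0.19, adjusted p = 0.484, edgeR). Eif6, whose product keeps the large subunit from joining too early, had cKO values within the WT range (log2 0.01, SE 0.26).

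**Figure D5:**
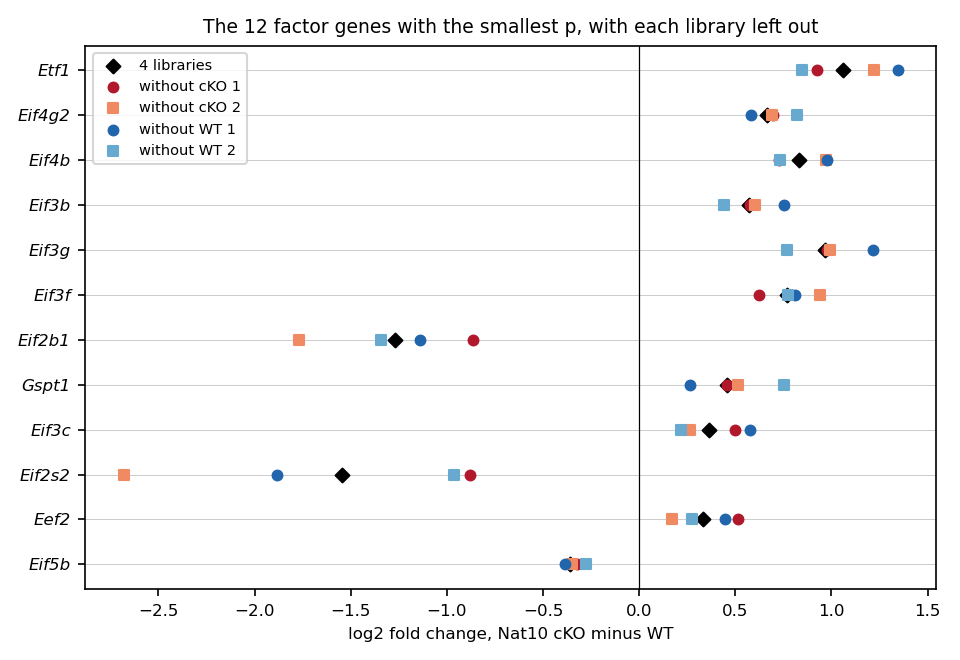
Log2 fold change (cKO minus WT) of the 12 genes with the smallest p, with all 4 libraries (black diamonds) and with each library left out. All points of each gene stay on one side of 0, and those of Eif2s2 spread most, from -2.68 to -0.88. The 12 genes were picked by p in the same libraries, and that choice favours a kept direction.

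How far these values rest on single libraries can be read from the counts of calls. Leaving out WT replicate 2 put 3 of 42 tested factor genes past the threshold, namely Etf1, Eif4g2 and Gspt1, all higher in cKO, where 5.48% of all tested genes passed, 2.94% as higher. Leaving out WT replicate 1 put 15 of 42 past it, 13 higher (Eif1a, Eif2s1, Eif2b3, Eif3b, Eif3c, Eif3f, Eif3g, Eif4a1, Eif4b, Eif4g2, Eef2, Eif5a and Etf1) and 2 lower in cKO (Eif2s2 and Eef2k), where 27.4% of all tested genes passed, 15.3% higher and 12.1% lower. Leaving out cKO replicate 1 put 0 of 41 past it (0.827% of all tested genes), and leaving out cKO replicate 2 put 1 of 42 past it, Etf1 (0.926%). In each such fit the lone library is assumed to vary like the other pair. With all libraries, 2 of 45 passed when every gene with a count was tested (2.91% of all tested), 1 with CPM of at least 5 in all libraries (3.07%), 1 with the replicate numbers as a block (1.8%) and 0 with upper quartile scaling (1.4%), with RLE size factors or with no scaling factors (1.35% each). Among the 40 genes the median absolute log2 difference within a pair was 0.24 between the cKO libraries and 0.34 between the WT libraries. For all tested genes, with 0.5 added to each CPM, the medians were 0.37 and 0.64. The difference exceeded 1 for 2 factor genes in the cKO pair and for 6 in the WT pair: Eif1a, Eif4e, Eif5a, Eif2b3, Eef1d and Eif4g3. Among all 7953 tested genes it exceeded 1 for 1239 in the cKO pair and for 2670 in the WT pair.

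The genes listed with few or no counts include some that every cell uses. Eif1 and Eif3j1 had 0 counts in all 4 libraries, which allows up to 1.02 CPM in cKO, against 0.785 CPM in WT by counting error over each group. A further 3 (Eif2s3x, Eif4ebp2 and Eef1g) had fewer than 10 counts in every library. Eif3j2, the near-identical copy of Eif3j1, had 13 and 14 counts in cKO, against 17 and 42 in WT. Of the same libraries' ribosomal protein genes 35 of 92 (38.0%) had no count, against 44.4% of all genes in the deposited table. The glycolytic gene Gapdh had 0 and 4 counts in cKO, against 0 and 2 in WT. These genes were looked up after the values of the factor genes were seen. The sources used here do not say how reads matching several genes were treated, so the level of a factor gene with near-identical copies or pseudogenes, Eef1a1 among them, is uncertain.

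The 9 genes on the TOP list were Eef1a1, Eef1b2, Eef1d, Eef1g, Eef2, Eif3e, Eif3f, Eif3h and Eif4b. Of the 8 tested, none passed, and log2 fold changes ran from -0.06 for Eif3e to 0.83 for Eif4b. Their median was 0.13, against 0.17 for the 32 tested factor genes outside the list and -0.01 for all genes. Eif3f and Eif4b were the 2 with an unadjusted p under 0.05 by edgeR, both higher in cKO. Of all tested genes 12.1% had such a p, 5.63% as higher in cKO.

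No related gene outside the 47 passed either. Of 27 further cytosolic factors 21 were tested and none passed (median log2 fold change 0.11). Denr, whose product helps initiation after short upstream reading frames, had 135.1 and 113.2 CPM in cKO, against 59.6 and 51.4 CPM in WT (log2 1.17, SE 0.31, adjusted p = 0.142, edgeR). Gspt2, the retrogene of Gspt1, went the other way, with 9 and 5 counts in cKO, against 19 and 86 in WT (log2 -2.39, SE 0.87, adjusted p = 0.308, edgeR).

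Of 30 regulators of factor activity (eIF2 kinases and phosphatase subunits, mTOR and MNK pathway genes, modifying enzymes) 28 were tested and none passed, with a median of 0.23. Ppp1r15b, which encodes a subunit that directs dephosphorylation of eIF2 alpha, had 126.2 and 169.9 CPM in cKO, against 87.1 and 50.8 CPM in WT (log2 1.13, SE 0.35, adjusted p = 0.211, edgeR). Eif2ak4, the gene of the amino acid sensing eIF2 kinase GCN2, had 33 and 53 counts in cKO, against 7 and 0 in WT (log2 3.20, SE 1.44, adjusted p = 0.424, edgeR). Of 10 mitochondrial translation factors 6 were tested and none passed, with a median of 0.23. The smallest p-values there were those of Mtif3 (16 and 35 counts in cKO, against 3 and 0 in WT) and of Mtrf1 (32 and 19 counts in cKO, against 7 and 11 in WT).

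Markers of several cell types, osteoclast and macrophage markers among them, differed between the same libraries. Stromal markers summed to 648.8 and 612.0 CPM in cKO, against 4707 and 6051 CPM in WT. Of the 9 tested, 6 fell past the threshold (Col1a1, Col1a2, Col3a1, Sparc, Bgn and Acta2), where 60 of all 7953 tested genes fell. Of the other 3 tested, Dcn had a negative log2 fold change (-1.55). Pdgfrb (1.87, from 34 and 19 counts in cKO, against 8 and 5 in WT) and Runx2 (2.53, from 13 and 19 counts in cKO, against 4 and 0 in WT) had positive ones with all cKO values above both WT values. Among those not tested, Sp7 had no count and Lum had 0 and 0 counts in cKO, against 0 and 3 in WT. Alpl had 0 and 4 counts in cKO, against 20 and 1 in WT. Neutrophil markers summed to 821.0 and 749.6 CPM in cKO, against 1267 and 1478 CPM in WT, with none of 3 past the threshold and Ly6g and Prtn3 at 0. Osteoclast markers summed to 8555 and 7930 CPM in cKO, against 12581 and 13366 CPM in WT (Mmp9 fell, of 9 tested, and only Calcr had a positive log2 fold change, 2.50). Macrophage markers summed to 39580 and 35008 CPM in cKO, against 53615 and 68717 CPM in WT (Csf1r and Lyz2 fell, of 8 tested). Of the macrophage markers 3 had positive log2 fold changes, Mrc1 (1.25), Fcgr1 (0.47) and Cd14 (0.07). The part of these differences in the factor genes' values was not tested.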

How the data were processed

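Ribosome-protected fragments were sequenced from 4 libraries. The authors deposited 1 table of whole-number counts with gene coordinates, per the file headers. Per the submitters' processing notes, fastp, Bowtie, STAR and HTSeq were used with GRCm39 (mm39). Versions, the counted region, footprint lengths, strand setting and the handling of multi-mapped reads were not stated in those notes. Columns were matched to samples by description, and 0 columns of values were unmapped.

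Genes were kept by edgeR 4.0.16 filterByExpr (minimum count 10, minimum total 15; R 4.3.3), scaled by TMM and tested by the robust quasi-likelihood method on genotype alone. Benjamini-Hochberg adjustment ran over 7953 genes, with 0.05 as the threshold. The common biological coefficient of variation was 0.448. CPM uses TMM-scaled totals. Alternatives used limma 3.58.1, DESeq2 1.42.0, other scalings and filters, a replicate block and each library left out. Same-numbered libraries' deviations correlated at -0.02. With 2 libraries a group this value cannot show whether the numbers pair them.

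Members, classes and gene lists were chosen with earlier results of these data known. Named genes were the 12 with the smallest p, the extremes of each complex, 7 factors that define their step and, in related lists, genes past the threshold or the 2 with the smallest p; the remaining factor genes were given by value or range. Ratios of counts between genes were compared across libraries only, since no gene lengths were used.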

Additional observations from a re-analysis of the deposited data

How the results depend on the processing

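The number of genes past the threshold was 111 by edgeR with 4 libraries, 363 when every gene with a count was tested, 191 with CPM of at least 5 in all libraries, 219 by DESeq2 and 599 by limma-voom, and it ran from 73 to 2420 with single libraries left out. For the factor genes these counts were 0, 2, 1, 2 and 7, and from 0 to 15. With the replicate block 1 factor gene, Etf1, passed (adjusted p = 0.0175, edgeR) and 143 genes did in all. Whether the numbers pair the samples is not known. The other scalings called none of the factor genes. The median log2 fold change of the factor genes was 0.26 by limma-voom and 0.14 to 0.27 with single libraries left out. That of the initiation genes was 0.15 by limma-voom and 0.11 to 0.27 with libraries left out, and that of the termination genes 0.27 to 0.76. The elongation median moved by less than the spread between replicates under every setting run.

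Of 288 values of named genes under alternatives, 246 kept direction and side of the threshold, 3 kept direction with no adjusted p from DESeq2 (Eif2s2, Eif2b4 and Eif4e), 27 passed the threshold, and 12 changed sign, none of them past it. By limma-voom Eif4e was 0.42 and Eef1a1 -0.016. With single libraries left out, the log2 fold change ran from -0.84 to 0.90 for Eif4e, -0.081 to 0.24 for Eef1a1, -0.41 to 0.057 for Eif1ax, -0.17 to 1.24 for Eif2s1, -0.75 to 0.28 for Eif4g3, -0.048 to 0.51 for Eef1b2 and -0.17 to 0.047 for Abce1. Of the 16 other tested factor genes 8 changed sign under some setting, with ranges over single libraries left out of -0.41 to 0.53 for Eif2b2, -0.037 to 0.27 for Eif3a, -0.11 to 0.039 for Eif3e, -0.32 to 0.52 for Eif3h, -0.63 to 0.27 for Eif3k, -0.15 to 0.26 for Eif4h, -0.20 to 0.35 for Eif6 and -0.40 to 0.74 for Eef1d. The cause of these changes was not tested. With 2 libraries a group and low counts in eIF2 and eIF2B genes, differences of the size seen there are not resolved.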
